A study of Mus musculus with 4 samples.

Results

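The 7 genes Pou3f3, Irx3, Irx5, Meis2, Cited1, Pla2g7 and Crym were examined in the molar tooth mesenchyme of mouse embryos at embryonic day 13.5. They were chosen by expression values of these same libraries, as genes of maxillary position or genes that were higher in the upper than in the lower molar of both genotypes. All 7 were found among 22072 gene symbols, with FPKM (fragments mapped, scaled to transcript length and library size) summed over the transcripts of each symbol. The study compared mesenchyme captured by laser in 4 groups. These were the upper molar and the lower molar of Bmp4f/f;Wnt1Cre mutants, and the upper molar and the lower molar of Bmp4f/+ controls. All were on a mixed background and all carried at least 1 floxed allele of Bmp4, a secreted BMP ligand of tooth mesenchyme. Wnt1Cre drives recombination in the neural crest, the source of tooth mesenchyme, and the control label names no Cre. The presence of Cre and the loss of Bmp4 therefore cannot be told apart. Each group had 1 library, made from a pool that drew on 3 mutant and control pairs, so the spread between embryos was not measured.

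The upper and lower jaw arise from the maxillary and mandibular parts of the first pharyngeal arch. Endothelin signalling acts in the mandibular part through the homeobox genes Dlx5 and Dlx6. In mouse embryos that lack this axis, genes of maxillary position such as Pou3f3 are expressed in the lower arch. Pou3f3 encodes a POU-domain transcription factor needed for parts of the upper jaw skeleton. Irx3 and Irx5 encode Iroquois homeobox factors from neighbouring genes, and Meis2 encodes a TALE homeobox factor needed in facial neural crest. Cited1 encodes a transcriptional co-regulator that binds CBP and p300. Pla2g7 encodes a secreted phospholipase that breaks down platelet-activating factor, and Crym encodes a cytosolic protein that binds thyroid hormone.

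Promoter sequences are shown for Pou3f3, Pla2g7 and Cited1, because these genes were among those with the clearest molar difference. RefSeq promoter windows on GRCm38.p6 were matched for 5 of the 7 genes: Pou3f3, Irx3, Meis2, Pla2g7 and Cited1, the last with several start sites and so 7 windows in all. Irx5 and Crym were not matched. The 250 bases before the start are printed 5′ to 3′ on the gene's strand. The window of Pou3f3 is chr1:42695518-42695767 on the plus strand, on the side of a long noncoding RNA gene described further on. The window of Pla2g7 is chr17:43568201-43568450 on the plus strand, and that of the most upstream start of Cited1 is chrX:102252182-102252431 on the minus strand. Capitals mark a match to 1 of 3 motifs.
Pou3f3: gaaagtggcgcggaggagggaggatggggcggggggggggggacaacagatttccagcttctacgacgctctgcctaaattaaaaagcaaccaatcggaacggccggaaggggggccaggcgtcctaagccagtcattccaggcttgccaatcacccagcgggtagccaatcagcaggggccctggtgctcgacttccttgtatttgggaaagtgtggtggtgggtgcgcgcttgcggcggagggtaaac
Pla2g7: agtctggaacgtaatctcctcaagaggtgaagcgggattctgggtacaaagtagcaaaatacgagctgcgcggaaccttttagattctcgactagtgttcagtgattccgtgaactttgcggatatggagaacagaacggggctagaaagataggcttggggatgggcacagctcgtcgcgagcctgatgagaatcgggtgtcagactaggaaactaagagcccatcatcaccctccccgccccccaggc
Cited1: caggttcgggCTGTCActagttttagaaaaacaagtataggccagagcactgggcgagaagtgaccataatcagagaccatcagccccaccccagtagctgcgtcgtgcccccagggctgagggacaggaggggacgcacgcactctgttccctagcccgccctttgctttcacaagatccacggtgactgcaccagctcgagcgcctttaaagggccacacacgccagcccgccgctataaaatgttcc

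The 3 motifs, searched on both strands, were the TALE half-site TGACAG, the POU octamer ATGCAAAT and the Iroquois motif ACANNTGT. Among 32851 RefSeq windows of the same length, 15.9% held the TALE motif, 1.6% the POU octamer and 6.31% the Iroquois motif. In the 7 windows there was 1 match, a TALE motif on the minus strand of the Cited1 window printed above, from 240 to 235 bases before the start. It overlapped no other motif. The windows of Pou3f3 and Pla2g7 held none of the 3 motifs. Their GC content was 60.8% for Pou3f3 and 52.8% for Pla2g7, against a median of 52.4% over all windows.

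About 5550000 and 5000000 reads lay on annotated transcripts in the upper and lower molar of mutants, and about 4840000 and 4820000 in those of controls, as estimated from the deposited coverage. On a 2 kb transcript, 3 reads correspond to between 0.101 and 0.115 FPKM. The targeted gene Bmp4 had 4.75 and 4.90 FPKM in the mutant libraries (upper, lower), against 24.8 and 27.2 FPKM in the control libraries (upper, lower), a difference of -2.21 ± 0.11 (log2, SE, limma adjusted p = 0.0008). That call was lost without either control library, at limma adjusted p = 0.081 and 0.085. The 10 tooth mesenchyme markers, among them Msx1, Pax9, Barx1 and Lhx6, summed to between 666 and 770 FPKM per library. Muscle markers summed to between 3.04 and 3.90 FPKM and dental epithelium markers to between 21.1 and 23.4 FPKM per library. Erythroid markers, which mark red blood cells, summed to 932 and 1090 FPKM in the mutant libraries (upper, lower) and to 1034 and 918 FPKM in the control libraries (upper, lower), above the tooth mesenchyme markers in each library.

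The 7 genes did not behave alike between the molars, and not all of them carried the upper molar label in these libraries. Pou3f3, Cited1, Pla2g7 and Crym were at least 2-fold higher in the upper than in the lower molar, in mutants as in controls, on the log2(FPKM + 1) scale. Irx5 was higher in the upper molar of both genotypes by less than 2-fold on that scale. Without the added 1 its upper to lower FPKM ratio in mutants was 2.88. Irx3 was too low for a molar difference to be read, and Meis2 had opposite signs in mutants and controls. These molar values were used to choose the genes and are therefore given as a description with no test. Among 10502 genes that averaged at least 1 FPKM, 0.619% were at least 2-fold higher in the upper molar of mutants, 0.524% in that of controls and 0.219% in both. Of the 7 genes, 6 reached that average and Irx3 did not. The median upper minus lower difference (log2) of the 7 genes was 1.78 in mutants and 1.401 in controls, beside 0.07 and 0.0038 over all 10502 genes. In bulk samples fewer expressing cells and less RNA per cell cannot be told apart.

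Intervals given with a ratio are exact 95% Clopper-Pearson intervals on approximate reads. They and the Poisson intervals of single values cover counting error only, since amplified reads are not independent molecules.

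Pou3f3 (chromosome 1, 42753991 to 42757054, mm9, 1 transcript) reached 19.98 FPKM (upper) and 4.09 FPKM (lower) in mutants. In controls it reached 17.4 FPKM (upper) and 2.56 FPKM (lower). Both upper molar libraries lay above both lower molar libraries, and in each molar the mutant value was the higher one. Its upper to lower ratio was 4.89 in mutants (4.17 to 5.79) and 6.79 in controls (5.52 to 8.46), on 102 to 910 approximate reads per library. Among the 10502 genes Pou3f3 ranked 5th by the smaller of its mutant and control log2 molar differences.

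Cited1 (chromosome X, 99442776 to 99447108, 1 transcript) was the most abundant of the 7 genes per length in all 4 libraries. Mutants had 25.2 FPKM (upper) and 6.59 FPKM (lower) of it, and controls had 24.6 FPKM (upper) and 7.55 FPKM (lower). The 2 upper libraries had overlapping Poisson intervals, which ran from 22.6 to 27.9 FPKM in the mutant and from 22.0 to 27.5 FPKM in the control. The ratio of upper to lower was 3.82 in mutants (3.04 to 4.89) and 3.26 in controls (2.58 to 4.14). As Cited1 is X-linked, sex-linked genes were also read. Xist, the RNA of the inactive X chromosome, was at most 0.03 FPKM in each library, and the Y-linked gene Ddx3y lay between 5.02 and 5.62 FPKM.

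Pla2g7 (chromosome 17, 43705400 to 43749150, 1 transcript) stood at 4.04 FPKM (upper) and 0.465 FPKM (lower) in mutants. Its control values were 12.8 FPKM (upper) and 1.14 FPKM (lower). The control upper molar stood above the other libraries, and the mutant lower molar rested on about 13 reads. The upper molar exceeded the lower by a ratio of 8.68 in mutants (4.72 to 16.2) and 11.2 in controls (7.50 to 16.7). Macrophages are a known source of this enzyme. The 11 macrophage markers in the tables, among them Csf1r, Cd68 and the C1q genes, summed to 10.1 FPKM (upper) and 13.0 FPKM (lower) in mutants and to 10.1 FPKM (upper) and 10.7 FPKM (lower) in controls. Only 4 of the 11 averaged at least 1 FPKM, so most of these markers were low. Of the 11, 0 were higher in the upper molar of both genotypes and 6 were lower in both. Of all genes tested 35.0% were higher in both, a share that leaves out low genes such as most of these markers. The share of genes lower in both is not given here. In the control libraries C1qa was at 0, while C1qb had 2.13 FPKM (upper) and 2.23 FPKM (lower). The part of macrophages in the molar difference of Pla2g7 was not tested.

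Crym (chromosome 7, 127329898 to 127345502, 1 transcript) measured 8.73 FPKM (upper) and 1.01 FPKM (lower) in mutants. Controls measured 12.8 FPKM (upper) and 4.23 FPKM (lower). The control upper molar was the highest library and the mutant lower molar the lowest, as for Pla2g7. For Crym the ratio of the upper to the lower molar was 8.62 in mutants (5.26 to 14.9) and 3.03 in controls (2.31 to 4.06). The difference between these ratios was not tested, because 1 library per group leaves no degree of freedom for it. By the smaller of its mutant and control log2 differences Crym, at 1.401, was the lowest of the 4 genes past 2-fold, and the next named genes outside the set were Gng3 at 1.35 and Igfbp5 at 1.33.

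**Figure D1:**
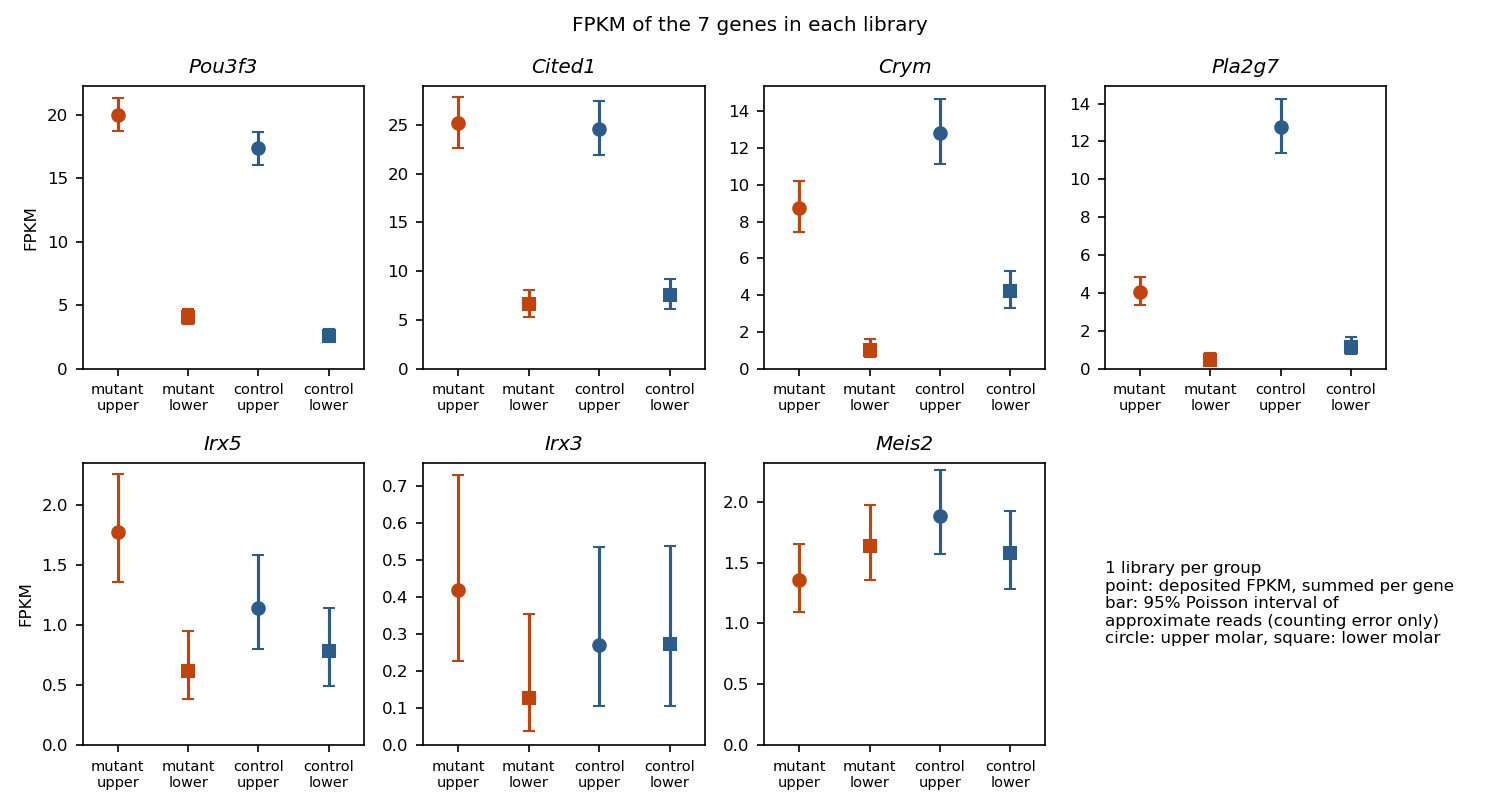
FPKM (y axis) of each of the 7 genes in the 4 libraries (x axis). Points are deposited FPKM summed per gene with 95% Poisson intervals of approximate reads. Pou3f3, Cited1, Crym and Pla2g7 were higher in both upper molar libraries (circles) than in both lower molar libraries (squares), while Irx3 stayed at or under 0.418 FPKM and Meis2 between 1.35 and 1.89 FPKM.

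Irx5 (chromosome 8, 94881695 to 94885355, 1 transcript) was low, with 1.77 FPKM (upper) and 0.616 FPKM (lower) in mutants. Control libraries gave 1.14 FPKM (upper) and 0.781 FPKM (lower). Both upper libraries lay above both lower libraries, on 21 to 63 approximate reads. The upper to lower ratio was 2.88 in mutants (1.71 to 4.91) and 1.45 in controls, where the interval of 0.867 to 2.62 included 1. On the log2(FPKM + 1) scale the molar differences were 0.78 in mutants and 0.26 in controls, and by the smaller of them Irx5 ranked 396th of 10502 genes.

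Irx3 (chromosome 8, 94322424 to 94325273, 1 transcript) lies 556 kb from Irx5 and was near the limit of detection. The mutant values were 0.418 FPKM (upper) and 0.126 FPKM (lower), on about 13 and 4 reads. The control values were 0.270 FPKM (upper) and 0.273 FPKM (lower), on about 7 reads each. Ratios of upper to lower were 3.31 in mutants (0.952 to 13.0) and 0.990 in controls (0.298 to 3.33), so a molar difference was not detectable at this depth.

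Meis2 (chromosome 2, 115687000 to 115890794, 6 transcripts) gave 1.35 FPKM (upper) and 1.64 FPKM (lower) in mutants. The controls gave 1.89 FPKM (upper) and 1.58 FPKM (lower). The molars overlapped, since the upper molar was the lowest library in mutants and the highest in controls. The upper molar stood to the lower at a ratio of 0.827 in mutants (0.620 to 1.09) and 1.19 in controls (0.908 to 1.58), and both intervals included 1. The deposited split over its 6 transcripts varied between libraries. The transcript of 4737 bases had 0.939 FPKM (upper) and 0.306 FPKM (lower) in mutants, and 1.47 FPKM (upper) and 0.495 FPKM (lower) in controls. The transcript of 5010 bases had 0.272 FPKM (upper) and 0.981 FPKM (lower) in mutants, and 0.416 FPKM (upper) and 0.00608 FPKM (lower) in controls. With about 96 to 119 reads per library for all 6, and estimates of 0 for several transcripts, this division of reads is uncertain.

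**Figure D2:**
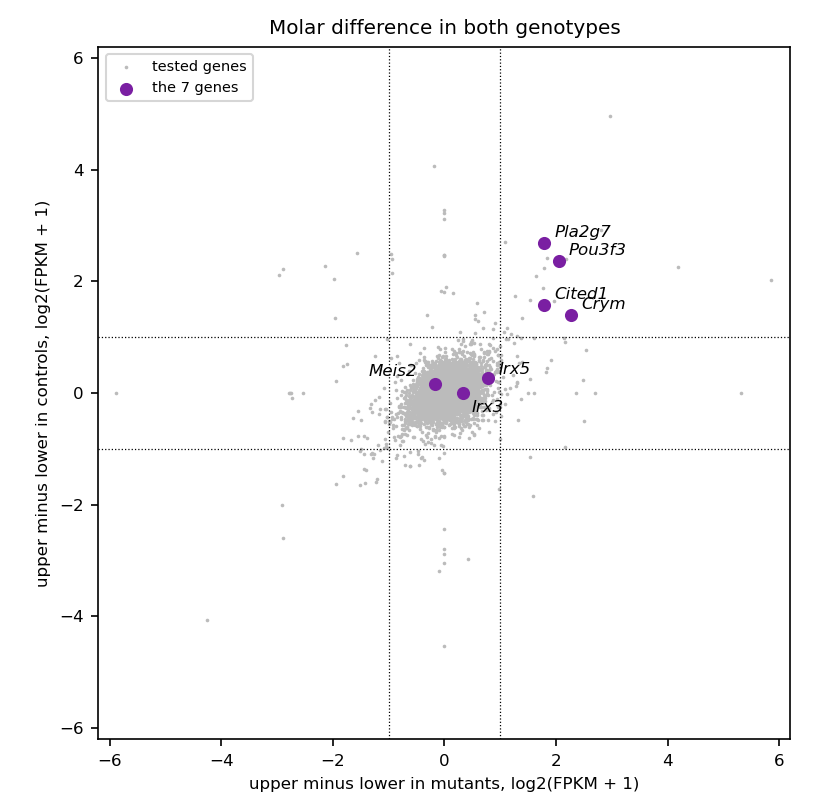
Upper minus lower difference on the log2(FPKM + 1) scale in mutants (x axis) and controls (y axis) for 10502 tested genes (grey) and the 7 genes (purple). Dotted lines mark 2-fold. Pou3f3, Pla2g7, Cited1 and Crym lie beyond 2-fold on both axes, and Irx5, Irx3 and Meis2 lie within the dotted lines.

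Per length, the order of FPKM levels in the mutant upper molar was Cited1, Pou3f3, Crym, Pla2g7, Irx5, Meis2 and Irx3. The Poisson intervals of Irx5 and Meis2 overlapped there, from 1.36 to 2.26 and from 1.09 to 1.65 FPKM. In the control upper molar Crym and Pla2g7, both at 12.8 FPKM, could not be ordered, and Meis2 stood above Irx5 with intervals that just overlapped. The order differed in the lower molar, where Meis2 at 1.64 FPKM stood above Crym at 1.01 FPKM and Pla2g7 at 0.465 FPKM in mutants. The intervals of Meis2 and Crym overlapped there, and those of Meis2 and Pla2g7 did not.

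The genotype comparison addressed how loss of Bmp4 in neural crest mesenchyme relates to these genes, and it was not used to choose them. Pla2g7 and Crym had lower values in mutants than in controls in both molars, Pou3f3 had higher values in both, and Cited1 was close to level. limma, fitted on all 10502 genes with genotype and molar as terms, called 0 of the 6 tested genes at an adjusted p under 0.05. An unadjusted limma p under 0.05 was reached by 3 of the 6 genes, and by 13.2% of all genes tested. limma called 0.8% of all genes for genotype, 0.343% higher and 0.457% lower in mutants. With 2 libraries per genotype the fit leaves 1 residual degree of freedom, the disagreement of the genotype effect between molars. The spread between embryos does not enter its p-values.

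Pla2g7 was lower in mutants by 1.45 (upper molar) and by 0.55 (lower molar) on the log2 scale. The mutant to control ratio was 0.316 in the upper molar (0.254 to 0.393) and 0.407 in the lower molar (0.198 to 0.824). Over both molars the difference was -1.0 ± 0.21 (log2, SE, limma adjusted p = 0.13, unadjusted p = 0.0023), lower in 2 of 2 molars. With a pseudocount of 0.1 in place of 1 limma called Pla2g7 lower, at -1.39 (limma adjusted p = 0.036). Over 6 other settings that kept all libraries, its limma adjusted p lay between 0.036 and 0.77.

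Crym was lower in mutants by 0.51 (upper molar) and by 1.38 (lower molar) on the log2 scale. Its mutant to control ratio was 0.681 in the upper molar (0.552 to 0.840) and 0.239 in the lower molar (0.135 to 0.410). Over both molars the difference was -0.94 ± 0.20 (log2, SE, limma adjusted p = 0.13, unadjusted p = 0.0024), lower in 2 of 2 molars. Restricted to genes that averaged at least 5 FPKM, limma called Crym lower at the same -0.94 (limma adjusted p = 0.017), and the range over 7 settings was 0.017 to 0.75. The larger log2 difference was in the upper molar for Pla2g7 and in the lower molar for Crym.

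The sums of some marker lists also differed by genotype. Pericyte markers summed to 34.7 FPKM (upper) and 31.1 FPKM (lower) in mutants, against 51.9 FPKM (upper) and 48.3 FPKM (lower) in controls, and limma called 1 of 4 tested, Rgs5, lower. Osteoblast and cartilage markers summed to 11.8 FPKM (upper) and 17.1 FPKM (lower) in mutants, against 27.4 FPKM (upper) and 26.4 FPKM (lower) in controls, and limma called 1 of 4 tested, Sox9, lower. Endothelial markers summed to 33.7 FPKM (upper) and 41.3 FPKM (lower) in mutants, against 48.1 FPKM (upper) and 44.3 FPKM (lower) in controls, with 0 of 9 called and 1 at an unadjusted limma p under 0.05. Neural and glial markers summed to 8.82 FPKM (upper) and 7.88 FPKM (lower) in mutants, against 3.21 FPKM (upper) and 5.17 FPKM (lower) in controls. The 1 tested, Nefl, was not called (limma adjusted p = 0.057). Nefl alone had 6.89 FPKM (upper) and 4.15 FPKM (lower) in mutants, against 0.632 FPKM (upper) and 1.52 FPKM (lower) in controls. The calls of Rgs5 and Sox9 were lost with any 1 library left out. The part of these cell types in the differences of Pla2g7 and Crym was not tested.

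Pou3f3 was higher in mutants by 0.19 (upper molar) and by 0.52 (lower molar), which gave 0.35 ± 0.12 over both (log2, SE, limma adjusted p = 0.31, unadjusted p = 0.025). The mutant to control ratio of Pou3f3 was 1.15 in the upper molar (1.04 to 1.27) and 1.60 in the lower molar (1.24 to 2.06). Cited1 differed by 0.03 (upper molar) and by -0.17 (lower molar), and by -0.07 ± 0.11 over both (log2, SE, limma adjusted p = 0.83). Irx5 and Meis2 had opposite signs in the 2 molars. Over both molars they differed by 0.12 ± 0.19 and -0.13 ± 0.15 (log2, SE, limma adjusted p = 0.84 and 0.77). For Irx3, which was not tested, the differences were 0.16 (upper molar) and -0.18 (lower molar) (log2).

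Within single molars, 1 of the 7 genes was at least 2-fold lower in mutants in the upper molar (Pla2g7) and 1 in the lower molar (Crym). The same threshold was passed by 0.59% of the 10502 genes for the upper molar and by 0.619% for the lower molar. Of the 7 genes 0 were at least 2-fold higher in mutants, beside 0.419% of all genes (upper molar) and 0.476% (lower molar). The median mutant minus control difference of the 7 genes was 0.03 (upper molar) and -0.17 (lower molar) (log2), beside 0.02 and -0.05 for all genes tested.

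**Figure D3:**
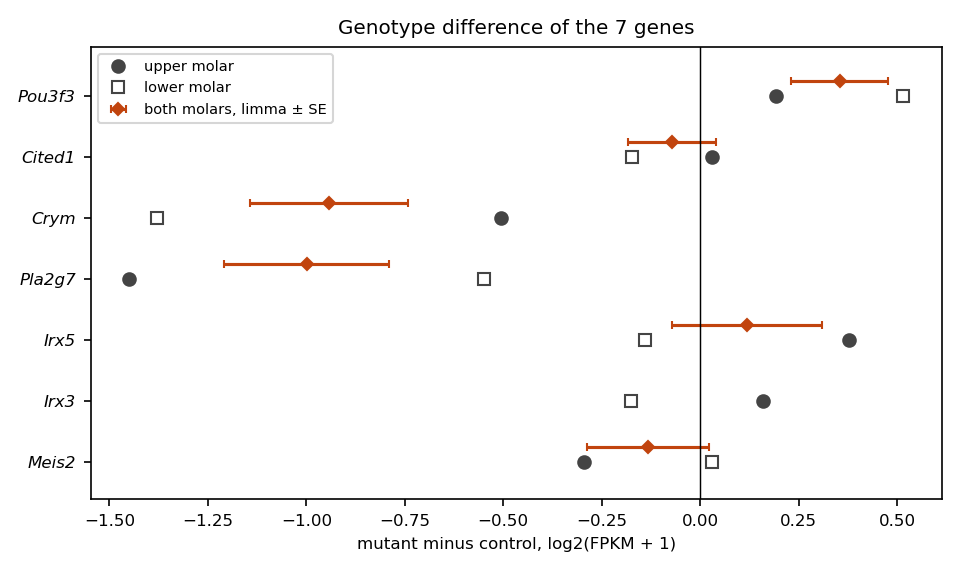
Mutant minus control difference on the log2(FPKM + 1) scale (x axis) for each gene (y axis), in the upper molar (filled circles), in the lower molar (open squares) and over both molars with the limma standard error (diamonds). Pla2g7 and Crym lie left of 0 in both molars, Pou3f3 lies right of 0 in both, and Cited1, Irx5, Irx3 and Meis2 have a value on each side of 0.

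Genes near the 7 were read as a feature that the choice did not use. A total of 53 gene symbols lay within 500 kb of 1 of the 7 genes, and 29 of them averaged at least 1 FPKM. Of these 29, 2 were at least 2-fold higher in the upper molar of both genotypes, beside 0.219% of all genes tested. Both of these neighbours flank Pou3f3. They were singled out after their values were seen.

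The gene 2610017I09Rik, named Pantr1 in RefSeq, encodes a long noncoding RNA and ends 2.32 kb before Pou3f3 (chromosome 1, 42705045 to 42751670, mm9). Mutants had 16.5 FPKM (upper) and 3.90 FPKM (lower) of this RNA, and controls had 8.82 FPKM (upper) and 0.843 FPKM (lower). Upper to lower ratios were 4.23 in mutants (2.83 to 6.52) and 10.5 in controls (4.54 to 29.6), the control lower molar resting on about 6 reads. The mutant values stood above the control values in each molar, and limma called 2610017I09Rik higher in mutants by 1.12 ± 0.15 (log2, SE, limma adjusted p = 0.036). That call was lost in 9 of 11 other settings, among them a pseudocount of 0.1 (limma adjusted p = 0.069) and rescaling by median ratios (limma adjusted p = 0.090). Without the control lower library the difference was -0.085, in a fit without the molar term.

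On the other side, 2900092D14Rik begins 0.126 kb after the deposited end of Pou3f3. It gave 9.75 FPKM (upper) and 2.13 FPKM (lower) in mutants, and 9.90 FPKM (upper) and 1.31 FPKM (lower) in controls. Its upper to lower ratios of 4.58 in mutants (3.62 to 5.86) and 7.55 in controls (5.54 to 10.3) had intervals that overlapped those of Pou3f3. In RefSeq on GRCm38.p6 Pou3f3 spans 4443 bases, against 3064 bases in the deposited annotation. Whether reads at 2900092D14Rik belong to a longer Pou3f3 transcript was not tested. The other tested neighbours of Pou3f3, namely Mrps9, Tgfbrap1 and AI597479, had molar differences between -0.29 and 0.21 in mutants and between 0.02 and 0.19 in controls (log2).

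**Figure D4:**
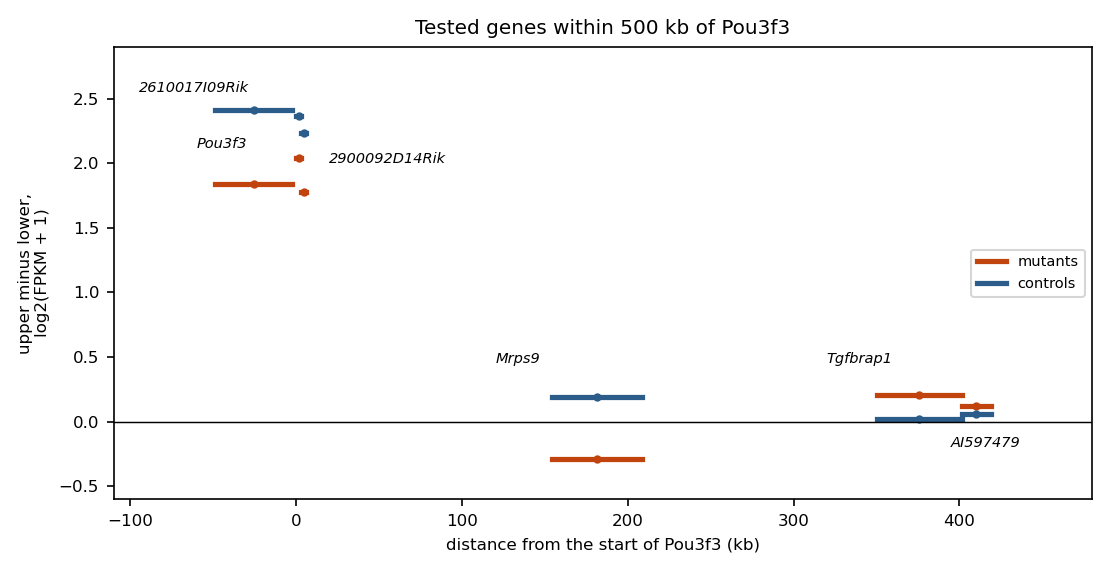
Upper minus lower difference on the log2(FPKM + 1) scale (y axis) in mutants and controls for Pou3f3 and the tested genes within 500 kb of it, drawn as bars over each gene's extent, with distance from the start of Pou3f3 (x axis, kb). The 3 genes near the origin lie between 1.78 and 2.41, and the 3 more distant genes lie between -0.29 and 0.21.

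No tested neighbour of the other 6 genes passed 2-fold in both genotypes. Upper minus lower (log2), 7 tested genes around Crym lay between -0.16 and 0.53 in mutants and between -0.18 and 0.23 in controls. Around Cited1 7 genes lay between -0.34 and 0.51 in mutants and between -0.36 and 0.28 in controls. Around Pla2g7 6 genes lay between -0.47 and 0.52 in mutants and between -0.62 and 0.20 in controls. Beside Irx5, the noncoding gene 4933436C20Rik, named Crnde in RefSeq, lies 1.68 kb away and was too low to be tested. It had 0.723 FPKM (upper) and 0.250 FPKM (lower) in mutants, and 0.598 FPKM (upper) and 0.213 FPKM (lower) in controls, on 3 to 13 approximate reads. Ratios of 2.89 (0.952 to 13.0) in mutants and 2.80 (0.854 to 18.8) in controls, upper to lower, had intervals that included 1.

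Related genes were read from lists of each gene's family or pathway. The list of maxillary position genes held 4 tested genes outside the set, and limma called 0 of them for molar, with 2 at an unadjusted p under 0.05. These were the nuclear receptor genes Nr2f1 and Nr2f2, with opposite signs. Upper minus lower, they differed by 0.40 ± 0.14 and -0.74 ± 0.13 (log2, SE, limma adjusted p = 0.41 and 0.074). The forkhead gene Foxl2 was too low to be tested, at 0.14 and 0.23 FPKM in the upper molar of mutants and controls and at 0 in both lower molars. In the mandibular list limma called 3 of 6 tested genes lower in the upper molar and 0 higher, beside 0.39% lower and 0.333% higher among all genes. The median molar difference (log2) of the tested non-members was 0.09 in mutants and 0.03 in controls for the maxillary list, and -0.94 in mutants and -0.55 in controls for the mandibular list.

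The 3 called genes were Pitx1, Dlx5 and Dlx6, homeobox genes of the lower jaw. Their upper minus lower differences were -4.16 ± 0.11, -1.401 ± 0.10 and -1.58 ± 0.12 (log2, SE, limma adjusted p = 4.9e-05, 0.0035 and 0.0035). Pitx1 had 1.20 FPKM (upper) and 41.3 FPKM (lower) in mutants, and 0.862 FPKM (upper) and 30.2 FPKM (lower) in controls. Leaving out any 1 library ended the calls of Dlx5 and Dlx6, and Pitx1 was called in 3 of 4 such fits. In the list of palate mesenchyme genes limma called 1 of 8 lower in the upper molar, the homeobox gene Shox2, at -1.03 ± 0.11 (log2, SE, limma adjusted p = 0.013), a call lost with any 1 library left out.

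No molar test is given for the 7 genes, because that contrast was used to choose them. Among the other tested genes of their families limma called 0 for molar, beside 0.724% of all genes. It called 0 of 2 other POU factor genes, 0 of 8 other TALE genes, 0 of 3 in the Cited and CBP/p300 list, 0 of 5 other genes of platelet-activating factor metabolism and 0 of 6 other genes of the thyroid hormone pathway. Lists this short cannot be told apart from the share of all genes called. An unadjusted limma p under 0.05 for molar was reached by 8 of the 10 tooth mesenchyme markers. The share of all genes at that level is not given here. In the lists above there were 1, 1, 0, 0 and 1, in the same order. In the thyroid hormone list that gene was Slc16a10, a thyroid hormone and amino acid transporter, at 2.92 FPKM (upper) and 1.78 FPKM (lower) in mutants and 4.82 FPKM (upper) and 2.65 FPKM (lower) in controls (limma adjusted p = 0.13). The receptor gene Thrb was not tested, with 0.661 FPKM (upper) and 0.0547 FPKM (lower) in mutants and 0.377 FPKM (upper) and 0.107 FPKM (lower) in controls. The receptor gene Thra lay between 10.4 and 12.3 FPKM in the 4 libraries.

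Among TALE genes Pbx2, which encodes a partner of Meis factors, lay between 17.5 and 18.1 FPKM, above Meis2 in each library, with molar differences of 0.0011 in mutants and 0.05 in controls (log2). Meis1 was at most 0.55 FPKM. Among Iroquois genes Irx5 was the only one that averaged at least 1 FPKM. Irx1 had 0.531 FPKM (upper) and 1.28 FPKM (lower) in mutants and 1.12 FPKM (upper) and 0.795 FPKM (lower) in controls, so the 2 genotypes ordered it differently. Pou3f1, Pou3f2 and Pou3f4, the paralogs of Pou3f3, were at most 0.498 FPKM in each library. Cited2, a paralog of Cited1, was not higher in the upper molar, with 18.4 FPKM (upper) and 24.9 FPKM (lower) in mutants and 16.0 FPKM (upper) and 16.3 FPKM (lower) in controls.

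For genotype limma called 0 of the other tested genes in these family lists and in the maxillary list, beside 0.8% of all genes. An unadjusted limma p under 0.05 was reached by 13.2% of all genes. In these lists there were 1 each for POU, TALE, Cited and platelet-activating factor and 2 each for thyroid hormone and maxillary position. In the palate list limma called 1 of 8 higher in mutants, beside 0.343% of all genes. This was the zinc finger gene Osr2, at 0.78 ± 0.11 (log2, SE, limma adjusted p = 0.039), and the call was lost after rescaling (limma adjusted p = 0.074) and with any 1 library left out. Among genes of the mandibular list it called the homeobox gene Dlx3 lower in mutants, at -1.38 ± 0.16 (log2, SE, limma adjusted p = 0.024), and 0 genes higher. The call of Dlx3 was lost after rescaling by median ratios, at limma adjusted p = 0.061, and with any 1 library left out.

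**Figure D5:**
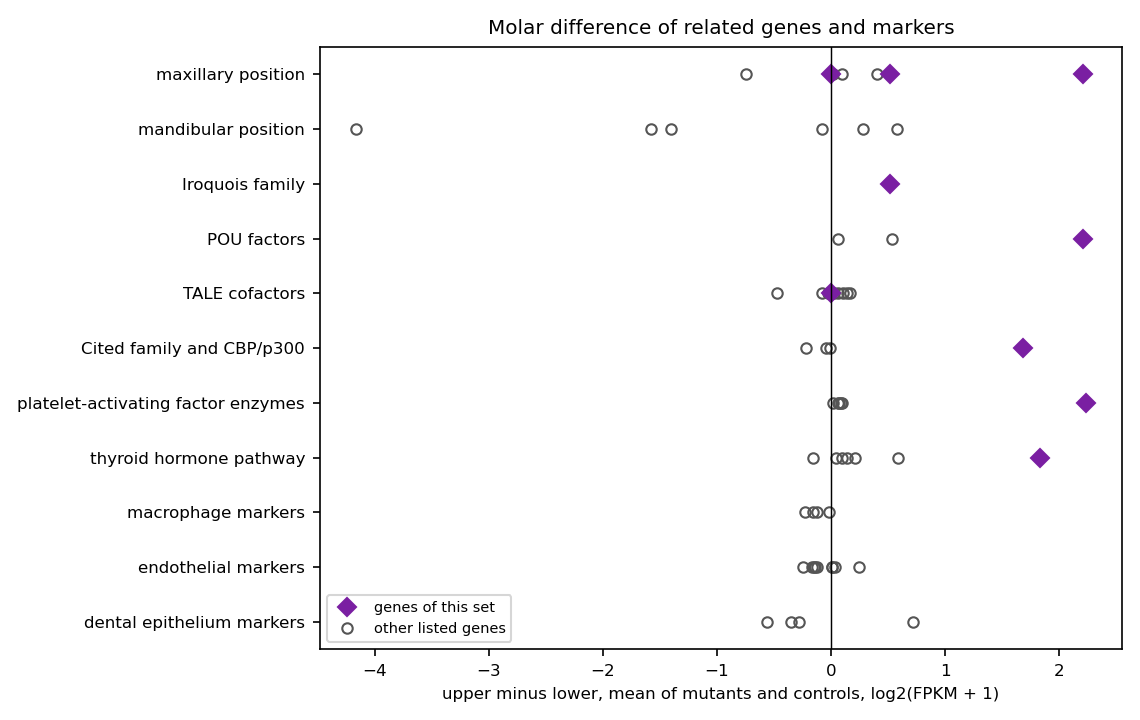
Upper minus lower difference, averaged over mutants and controls on the log2(FPKM + 1) scale (x axis), of tested genes by list (y axis). Purple diamonds are genes of the set and open circles other listed genes. Pou3f3, Pla2g7, Crym and Cited1 lie to the right of the other tested members of their lists, and Pitx1, Dlx6 and Dlx5 lie left of 0. The genes of the set were chosen on this contrast, so their places are a description.

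The pattern over the 4 libraries was compared with that of all other genes that averaged at least 2 FPKM. Likeness was the Euclidean distance between log2(FPKM + 1) profiles centred per gene, where 0 means the same profile. Nearest to Pou3f3 was Cbln1, which encodes a secreted synaptic organiser, at a distance of 0.37, and the next was Cited1 at 0.72. Cbln1 reached 15.4 FPKM (upper) and 4.26 FPKM (lower) in mutants and 15.5 FPKM (upper) and 2.87 FPKM (lower) in controls. Nearest to Cited1 was Gng3, a G protein gamma subunit gene, at 0.33, followed by Cbln1 at 0.47. For Pla2g7 these were Dhrs3, which encodes a retinal reductase, at 0.87 and Crym at 0.97. For Crym they were Aldh1a2, which encodes an enzyme that makes retinoic acid, at 0.31 and Igfbp5, which encodes an insulin-like growth factor binding protein, at 0.37. Aldh1a2 reached 33.6 FPKM (upper) and 6.82 FPKM (lower) in mutants and 43.4 FPKM (upper) and 21.4 FPKM (lower) in controls.

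The profiles of Irx3, Irx5 and Meis2 had many near neighbours. Their nearest genes were Slc7a6 for Irx3 at 0.0033, Cbr3 for Irx5 at 0.039 and Tspan14 for Meis2 at 0.02, followed by Mrpl9, Prkar2b and D19Ertd386e. Within a distance of 0.3 lay 4523 genes for Irx3, 182 for Irx5 and 3556 for Meis2, and 0 for each of Pou3f3, Cited1, Pla2g7 and Crym. The molar values used to choose the genes enter these profiles, so the counts are a description. Of the 4 genes past 2-fold in both genotypes the closest pair was Pou3f3 and Cited1 at 0.72 and the farthest Pou3f3 and Crym at 1.47.

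The 12 genes with the largest molar difference shared by both genotypes, among those averaging at least 2 FPKM and leaving out small RNA and provisional symbols, included Pou3f3, Pla2g7, Cited1 and Crym at places 1, 2, 4 and 5. The choice of the 4 used this contrast, so their places are a description. The other 8 of the 12 were Cbln1, Gng3, Igfbp5, Dhrs3, Slitrk5, Rpl26, Diras2 and Plxna2. Rpl26 had 0.00013 FPKM in the control lower molar and between 2.84 and 7.19 FPKM in the other libraries, so its place turned on 1 library. limma called 0 of these 12 for genotype. The smallest adjusted p was that of Plxna2, a semaphorin receptor gene, at -0.64 ± 0.12 (log2, SE, limma adjusted p = 0.087).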

How the data were processed

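RNA sequencing of 4 libraries, 1 per genotype and molar, was re-analysed from the authors' transcript tables. Alignment used TopHat 1.4.1 and Bowtie 0.12.7 with the mm9 genome, per the submitters' processing notes. Versions of the counting tool, its strand setting and its treatment of multiply aligned reads: not given in the sources used here. The deposited FPKM were normalised by the authors to mapped reads and transcript length, per the file headers. The deposited coverage is a signal that scales with FPKM inside each library.

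FPKM was summed per symbol. The authors' starts count from 0 and were raised by 1. Approximate reads are deposited coverage times length divided by 44.2 bases, the typical value of single-read genes, so read numbers are estimates. Differences are on log2(FPKM + 1). limma 3.58.1 (R 4.3.3) took genotype and molar as terms, with an intensity trend and Benjamini-Hochberg adjustment at 0.05, and tested the 10502 genes averaging at least 1 FPKM. Its prior had 5.77 degrees of freedom. It was tested on simulated data. Alternatives changed the pseudocount, scaling, filter, trend, terms, short transcripts and libraries.

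Named genes were the 7 genes, the 2 nearest to each by profile, the 12 with the largest shared molar difference, listed family genes and Bmp4, without provisional or small RNA symbols. Exceptions are said to be chosen after their values were seen. The members and lists were chosen with earlier results of these data known. Some listed genes are not reported here.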

Additional observations from a re-analysis of the deposited data

Results flagged for a closer look

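Of the 7 genes, 4 had a mutant minus control difference of opposite sign in the 2 molars. With 1 library per group none of these differences between molars was tested. The share of all genes with opposite signs is not given here. Some of the values lay close to 0, such as 0.03 for Cited1 (upper molar) and for Meis2 (lower molar). For Irx5 the mutant minus control difference was 0.38 (upper molar) and -0.14 (lower molar), a gap of 0.52 between the effects (log2). For Irx3 the values were 0.16 (upper molar) and -0.18 (lower molar), a gap of 0.34, on 4 to 13 approximate reads per library. For Meis2 they were -0.30 (upper molar) and 0.03 (lower molar), a gap of -0.33. For Cited1 they were 0.03 (upper molar) and -0.17 (lower molar), a gap of 0.20.

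The upper minus lower difference had opposite signs in mutants and controls for 2 of the 7 genes, again without a test or the share of all genes. Meis2 had -0.16 in mutants and 0.16 in controls, a gap of -0.33. Irx3 had 0.33 in mutants and -0.0032 in controls, a gap of 0.34.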

How the results depend on the processing

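Counts of genes called by limma were the results that depended most on the processing. For genotype, 36 genes were called higher and 48 lower in mutants. These counts became 6 and 8 after rescaling by median ratios, 0 and 0 with no filter on low values, 12 and 26 without the intensity trend, and 3 and 4 without the molar term. The count of higher genes became 65 without transcripts under 300 bases and 83 at an average of at least 5 FPKM. For molar, 35 genes were called higher and 41 lower in the upper molar. These became 69 and 70 without short transcripts, 63 and 64 at 5 FPKM, 0 and 0 with no filter, and 8 and 4 without the genotype term, and the higher count became 18 after rescaling. Leaving out 1 library gave 1 to 10 higher and 4 to 8 lower for genotype, and 0 to 18 higher and 0 to 3 lower for molar. Such fits have fewer samples and drop the other term.

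Of the 7 genes, 0 were called for genotype, but 1 with a pseudocount of 0.1 (Pla2g7) and 1 at 5 FPKM (Crym). Genes at least 2-fold higher in the upper molar numbered 143 in mutants, 112 in controls and 50 in both with a pseudocount of 0.1, which raises low genes by construction. Genotype differences of 2-fold then numbered 112 higher and 111 lower in the upper molar and 118 higher and 131 lower in the lower molar. Without short transcripts 29 genes were 2-fold higher in the upper molar of controls, 33 were 2-fold lower in mutants in the upper molar, and 27 were higher and 43 lower in the lower molar.

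Leaving out 1 library leaves the molars unbalanced between genotypes, with the molar term dropped, so that the molar difference enters the genotype value by construction. Genotype differences (log2) then ranged from -0.83 to 1.54 for Pou3f3, -0.27 to 0.51 for Irx5, -0.96 to 0.82 for Cited1, -2.34 to 0.34 for Pla2g7, -2.08 to 0.19 for Crym and -0.085 to 2.33 for 2610017I09Rik. The sign turned for Pou3f3 without the mutant upper (-0.67) or the control lower library (-0.83), and for Irx5 without either of the same libraries, to as far as -0.27. It turned for Cited1 without the mutant lower (0.82) or the control upper library (0.72), for Pla2g7 without the control upper (0.34), for Crym without the mutant lower (0.19) and for 2610017I09Rik without the control lower library (-0.085). Of 84 values of the 7 genes within 1 genotype or molar, 3 moved, all with a pseudocount of 0.1. These were the molar differences of Pou3f3 in controls (2.72) and of Pla2g7 in mutants (2.87) and controls (3.37). No paired analysis was possible because each group has 1 library and the labels give no replicate numbers to use as a block. The molar term of the fit does set mutant against control within each molar.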
